A study of Mus musculus with 12 samples.

Results

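The transcripts of 8 genes that mediate the passage of leukocytes across blood vessel walls were followed in mouse spinal cord white matter, before and 72 h after a demyelinating injury, at 2 ages. The genes were Sele, Selp and Selplg (E-selectin, P-selectin and the ligand PSGL-1), Icam1, Icam2, Vcam1 and Alcam (immunoglobulin superfamily adhesion molecules), and Plvap (a protein of endothelial diaphragms). They were found by symbol, and all 8 were present among the 46078 gene rows of the count table. At day 3, 6 of the 8 had risen in young lesions, where 28.3% of all genes tested were called higher, and 7 of the 8 in middle-aged lesions, where 29.2% were. Of these, Sele, Selp and Plvap were abundant enough to be tested only because of their lesion pools, and of the other 5 genes 3 and 4 had risen. The transcripts of both endothelial selectins went from at or near 0 to levels detected in every lesion pool.

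Leukocytes leave the blood in steps. Selectins on activated endothelium bind sugar-bearing ligands such as PSGL-1 and let leukocytes roll, after which integrins on the leukocyte bind ICAM and VCAM molecules and hold the cell firmly before it crosses. In healthy spinal cord the endothelium of the blood-neural barrier carries few of these molecules, and cytokines such as TNF and IL-1 are known to induce E-selectin, P-selectin, ICAM-1 and VCAM-1 through the transcription factor NF-kappaB.

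The tissue was ventrolateral spinal cord white matter of C57Bl6 mice, isolated from cryosections with a laser microdissector after the blood had been flushed out with saline. The 4 groups crossed age (young or middle-aged, which the methods for this experiment give as 6 weeks and 8 months) with injury (naïve or injured). Injured mice had been injected with lysolecithin, a detergent-like lipid that destroys myelin, and were sampled at 72 h (day 3). Naïve mice had no lesion, so the effects of lysolecithin and of the needle cannot be told apart. Each group had 3 libraries, each from RNA pooled from 5 animals, and the sources do not say whether the 3 pools of a group held different mice. The p-values therefore measure the spread between these pools, which may be technical in part. Pools held 9834447 to 12807437 gene counts. A count of 3, taken here as the floor of detection, stood for 0.22 to 0.323 CPM, the unit of level used below, which divides counts by the library total after TMM scaling.

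The captured tissue was a mixture, and its makeup moved with injury. The summed level of 10 endothelial marker genes was 447 to 578 CPM in young naïve pools, 564 to 664 CPM in middle-aged naïve pools, 382 to 429 CPM in young lesions and 429 to 471 CPM in middle-aged lesions, and all 10 were detected in every group. Of these 10, 3 were called higher and 3 lower in young lesions, and 2 higher and 2 lower in middle-aged lesions. Their median log2 fold change was 0.36 and 0.06. Cdh5 and Kdr rose at both ages. Slco1a4, a transporter of the barrier endothelium, fell at both ages, by about as many CPM as the sum did. The Slco1a4 mean went from 192 to 82.5 CPM in young and from 230 to 61.6 CPM in middle-aged mice. On the log2 scale its change was larger, at -1.22 and -1.90, against -0.34 and -0.43 for the sum. Cldn5, which encodes the tight junction protein claudin-5, had log2 fold changes of 0.52 and 0.11 that did not pass the test. The summed level of 8 myeloid markers went from 83.6 to 119 CPM in young naïve pools to 1675 to 1712 CPM in young lesions, and from 134 to 195 CPM to 1799 to 2435 CPM in middle-aged mice. Oligodendrocyte markers went from between 86700 and 101953 CPM to between 18252 and 20256 CPM in young mice. The summed astrocyte markers were lower in lesions by -1.08 in young and -1.31 in middle-aged mice on the log2 scale. The summed neuron markers, mostly Snap25, were lower by -1.66 and -1.58. The 6 meningeal fibroblast markers went from between 148 and 155 to between 808 and 1206 CPM in young mice, and from between 132 and 207 to between 448 and 731 CPM in middle-aged mice. The part of these shifts in the results below was not tested beyond the ratios given, and in such bulk tissue fewer cells of a type and less RNA per cell cannot be told apart.

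Positions are given from GENCODE on GRCm38, the build to which the reads were mapped. Sele lies on chromosome 1 from 164048234 to 164057677 and Selp from 164115264 to 164150026 on the same plus strand, with Sele upstream. Icam1 is on chromosome 9 (21015985 to 21028817, plus strand), Selplg on chromosome 5 (113818536 to 113832644, minus strand), Icam2 on chromosome 11 (106377656 to 106388075, minus strand), Vcam1 on chromosome 3 (116109949 to 116129688, minus strand), Plvap on chromosome 8 (71497765 to 71511752, minus strand) and Alcam on chromosome 16 (52248996 to 52454074, minus strand). Promoter sequences were at hand for 4 of the 8 genes, Icam1, Sele, Selp and Alcam, from RefSeq on GRCm38.p6. They were searched in the 250 bases before the transcription start for GGNNNTTCC, a core shared by many NF-kappaB sites, and for the TATA box TATAAA, on both strands. The 3 genes below were the ones with a match and also rose in lesions at both ages. They are shown as the 160 bases before the start, 5′ to 3′, with the matched letters in capitals.
Icam1 (chr9:21015780-21015939, plus strand): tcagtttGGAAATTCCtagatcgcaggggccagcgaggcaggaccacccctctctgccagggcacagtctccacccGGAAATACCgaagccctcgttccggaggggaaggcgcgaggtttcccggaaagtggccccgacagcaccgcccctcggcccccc
Sele (chr1:164048074-164048233, plus strand): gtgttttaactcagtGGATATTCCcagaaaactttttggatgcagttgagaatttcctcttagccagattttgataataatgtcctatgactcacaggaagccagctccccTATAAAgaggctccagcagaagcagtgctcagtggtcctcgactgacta
Selp (chr1:164115104-164115263, plus strand): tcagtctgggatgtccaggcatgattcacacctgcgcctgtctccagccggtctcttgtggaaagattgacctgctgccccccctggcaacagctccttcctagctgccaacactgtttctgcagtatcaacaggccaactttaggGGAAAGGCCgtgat

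Icam1 held 2 stretches that matched the NF-kappaB core, at bases -153 to -145, where the letters match on both strands, and at -84 to -76 on the minus strand. Sele held 1 at -145 to -137 and a TATA box at -49 to -44, and Selp 1 at -14 to -6 on the minus strand. The Alcam window held neither set of letters. Of 32817 mouse promoters searched in the same way, 15.7% held the NF-kappaB core and 12.4% the TATA box, so matches of this kind are common and are given as a description of the sequence.

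**Figure D1:**
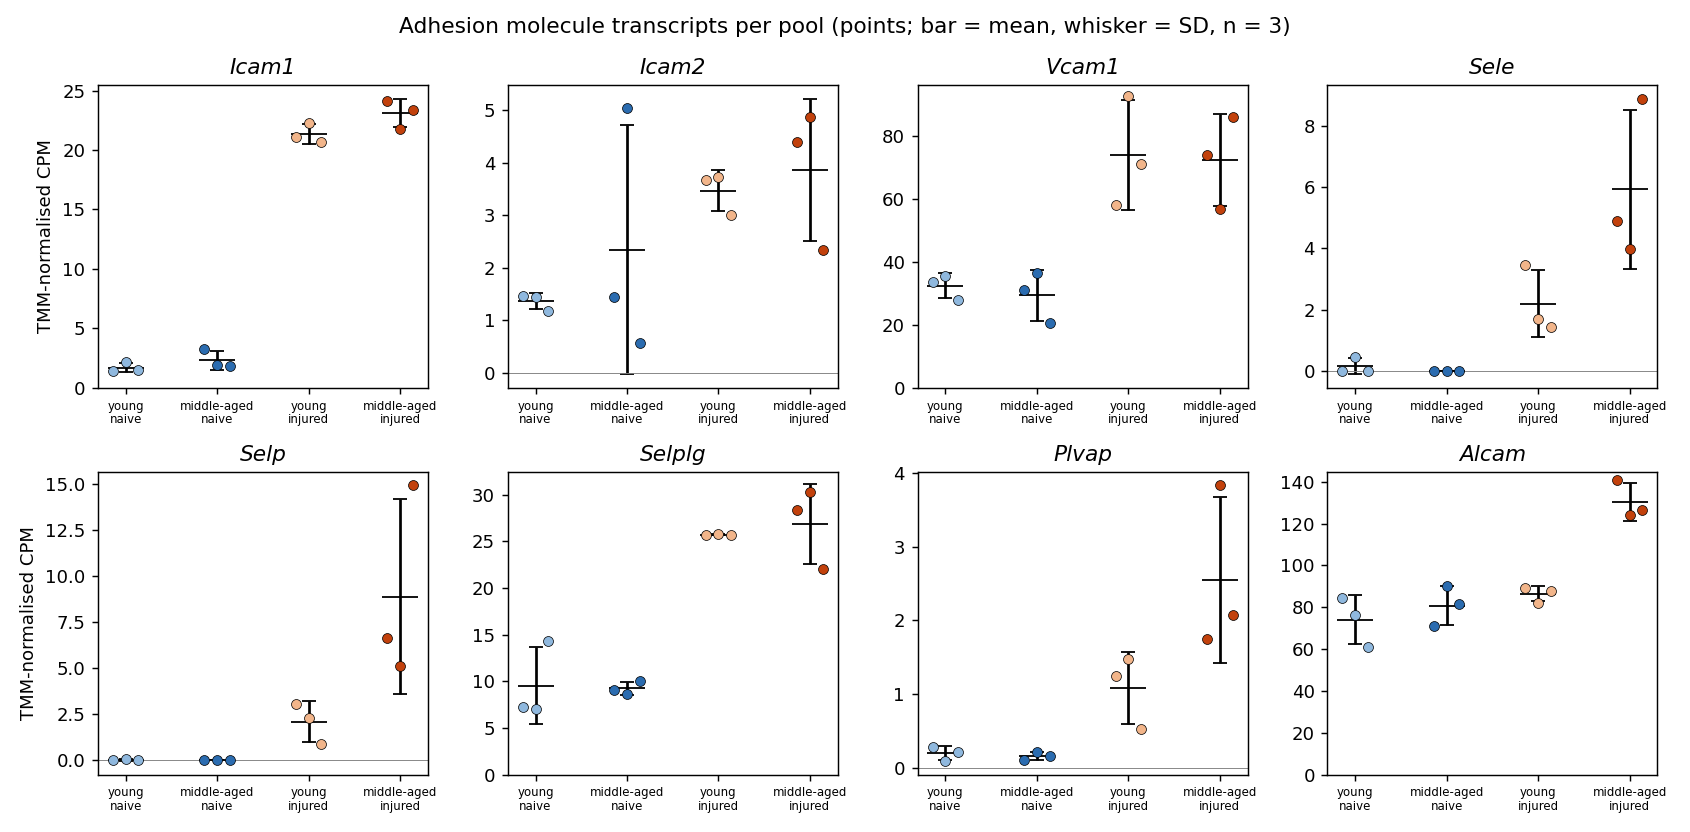
Level of each adhesion molecule transcript in every pool, in TMM-normalised CPM (vertical axis, scaled separately for each gene), in naïve and injured white matter of young and middle-aged mice; points are pools, horizontal bars are means and whiskers are SD (n = 3 pools). Icam1 pools sat between 1.46 and 3.26 CPM in naïve tissue and between 20.6 and 24.2 CPM in lesions, Sele and Selp were at or near 0 in naïve tissue, and Alcam was highest in middle-aged lesions.

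Counted over the 8 genes, 6 were called higher in young lesions and 7 in middle-aged lesions, none was called lower at either age, and the pools did not overlap for 7 genes at each age. Changes were widespread in this tissue. Of all genes tested, 54.6% were called in young mice (28.3% higher and 26.3% lower) and 58.5% in middle-aged mice (29.2% higher and 29.3% lower). Injured pools lay wholly above naïve pools for 35% of all genes in young and 31.5% in middle-aged mice. All 8 passed the filter on low counts, but Sele, Selp and Plvap did so only through their lesion pools, so that a higher level there was needed for them to be tested at all. Of the 5 genes over the filter's cutoff in at least 3 naïve pools, 3 were called in young and 4 in middle-aged lesions, all higher. The median log2 fold change of these 5 was 1.34 in young and 1.30 in middle-aged mice, and that of all genes was 0.00 and -0.03.

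The transcripts of the endothelial selectins were at or near 0 in naïve tissue and were counted in every lesion pool. Sele encodes E-selectin, which endothelium makes mainly when activated. Its counts in the young naïve pools were 0, 5 and 0, and all 3 middle-aged naïve pools were at 0. In young lesions the counts were 47, 22 and 19 (3.45, 1.71 and 1.43 CPM), and in middle-aged lesions 59, 50 and 103 (4.90, 3.99 and 8.89 CPM). Every lesion pool lay above every naïve pool. Young lesions held 88 Sele counts against 5 in young naïve tissue, a depth-adjusted ratio of 13.8 with a 95% exact interval of 5.71 to 43.7 that covers counting error only. In middle-aged mice Sele was at least 21.1-fold higher in lesions, taking 3 counts per naïve library as the bound. Both rises passed edgeR's quasi-likelihood test with Benjamini-Hochberg adjustment over the 15866 genes tested (adjusted p = 0.00254 and 4.08e-05).

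Selp encodes P-selectin, which endothelial cells and platelets store in granules. Its counts were 0, 1 and 0 in the young naïve pools and 0 in all middle-aged naïve pools. Young lesions gave 42, 30 and 12 counts (3.08, 2.33 and 0.904 CPM) and middle-aged lesions 80, 64 and 173 (6.64, 5.11 and 14.9 CPM). As with Sele, the injured and naïve pools did not overlap at either age. The depth-adjusted ratio in young mice was 66.1, with an interval of 11.5 to 2640 because naïve tissue held 1 count, and in middle-aged mice the rise was at least 31.7-fold. The edgeR test gave adjusted p-values of 0.000359 and 7.44e-06. Platelet markers were also higher after injury, going from 1.08 to 1.37 CPM in young naïve pools to 5.20 to 9.32 CPM in young lesions, and reached 6.56 to 9.46 CPM in middle-aged lesions. In lesions most of this sum was Pf4 (mean 5.88 CPM in young and 6.68 CPM in middle-aged mice), which macrophages can also express, and the platelet collagen receptor gene Gp6 was at 0 in all 12 pools. The platelet sums of young and middle-aged lesions overlapped, and the Selp levels did not. The part of platelets in the Selp level was not tested. Exons of 2 antisense or noncoding genes, Gm16587 and Gm16548, overlap Selp by 186 and 438 bases. They held 0 counts in naïve pools and up to 25 and 49 in middle-aged lesions, and since the strand setting of the counting is not given in the sources used here, reads of Selp and of these genes cannot be told apart in the shared stretches.

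Selplg, which encodes PSGL-1 and is made mainly by leukocytes, was already present in naïve tissue, where the cells that carried it were not identified. Its pools held 7.20, 7.07 and 14.3 CPM in young naïve mice, 9.12, 8.60 and 10.002 CPM in middle-aged naïve mice, 25.7 CPM in all 3 young lesion pools and 28.3, 30.3 and 22.0 CPM in middle-aged lesions. All lesion pools were above all naïve pools. The log2 fold change was 1.44 (SE 0.24, adjusted p = 0.000163) in young and 1.54 (SE 0.24, adjusted p = 8.02e-05) in middle-aged mice by edgeR. The rise was smaller than that of the myeloid markers. Per 1000 counts of the 8 myeloid markers, Selplg had 95.8 ± 21.2 counts (SD, n = 3 pools) in young naïve tissue and 15.2 ± 0.172 in young lesions, and 57.2 ± 12.2 and 12.2 ± 0.186 in middle-aged mice. The ratio was thus lower in lesions in all pools at both ages, by a factor of 0.160 in young and 0.217 in middle-aged mice, with a 2-sided exact permutation p of 0.1 for each, the smallest value that 3 pools against 3 can give. The size of this factor depends on the markers summed. Cd68 led the sum in lesions, going from 6.28 to 743 CPM in young and from 22.4 to 1012 CPM in middle-aged mice. Csf1r, the highest marker in naïve tissue, rose least, by 2.08 and 1.84 on the log2 scale, which is closer to Selplg.

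Icam1 encodes ICAM-1, the endothelial and leukocyte ligand of the integrins LFA-1 and Mac-1. Its level was 1.46, 2.18 and 1.51 CPM in young naïve pools and 3.26, 1.89 and 1.84 CPM in middle-aged naïve pools. In lesions it was 21.1, 22.2 and 20.6 CPM in young and 24.2, 21.8 and 23.4 CPM in middle-aged mice. The groups were far apart, and the lesion pools of both ages lay within a narrow band. The log2 fold change was 3.62 (SE 0.25, adjusted p = 2.35e-08, edgeR) in young and 3.31 (SE 0.24, adjusted p = 3.31e-08) in middle-aged mice, which is 12.3-fold and 9.91-fold. Among all genes tested, 5.03% and 4.97% had a larger log2 fold change. An antisense gene, Gm47079, overlaps 511 exon bases of Icam1 and was not analysed here.

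Vcam1 encodes VCAM-1, the ligand of the integrin VLA-4. It was abundant before injury, with 33.8, 35.6 and 28.1 CPM in young naïve pools and 31.1, 36.6 and 20.7 CPM in middle-aged naïve pools. Young lesions held 58.3, 92.8 and 71.2 CPM and middle-aged lesions 74.2, 57.0 and 86.1 CPM. Every lesion pool exceeded every naïve pool, but the lesion pools were more spread out than for Icam1. The log2 fold changes of 1.19 (SE 0.22, adjusted p = 0.000407, edgeR) and 1.30 (SE 0.22, adjusted p = 0.000176) correspond to 2.28-fold and 2.46-fold. An antisense gene, Gm43109, shares 61 exon bases with Vcam1 and held at most 6 counts in any pool.

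Icam2 encodes ICAM-2, a constitutive endothelial ligand of LFA-1. It did not pass the test at either age. Its level was 1.46, 1.45 and 1.18 CPM in young naïve and 3.67, 3.72 and 3.01 CPM in young injured pools, so the young groups did not overlap. In middle-aged naïve tissue it was 1.44, 5.04 and 0.560 CPM, and in middle-aged lesions 4.40, 4.87 and 2.33 CPM. The second middle-aged naïve pool, with 48 counts against 15 and 7 in the other pools of its group, lay above all 3 lesion pools. The log2 fold change was 1.34 (SE 0.58, adjusted p = 0.0649, edgeR) in young and 0.75 (SE 0.56, adjusted p = 0.262) in middle-aged mice. Without that pool the middle-aged log2 fold change was 1.98 (adjusted p = 0.00179). The young value kept its size but passed the threshold in 6 of 20 alternative fits, among them those without the second or the third middle-aged naïve pool (adjusted p = 0.00739 and 0.0210), whose spread enters the same model.

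Alcam encodes ALCAM (CD166), an adhesion molecule of barrier endothelium that neurons and leukocytes also carry and that binds CD6 on T cells. Young naïve pools held 84.4, 76.5 and 61.2 CPM and young lesions 89.2, 82.2 and 87.8 CPM, which overlapped. Middle-aged naïve pools held 71.0, 89.9 and 81.4 CPM and middle-aged lesions 140.8, 124.1 and 126.2 CPM, which did not. By edgeR the log2 fold change was 0.22 (SE 0.13, adjusted p = 0.175) in young mice and 0.69 (SE 0.13, adjusted p = 0.000467, or 1.61-fold) in middle-aged mice. With library totals in place of TMM factors the young value became 0.42 and passed the test (adjusted p = 0.0134), but that scaling also moved the median of all genes to 0.197.

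Plvap encodes PV-1, the diaphragm protein of fenestrated and leaky endothelium, which mature barrier vessels of the central nervous system largely lack and which takes part in leukocyte migration. It had 3, 1 and 2 counts in young naïve pools and 1, 2 and 2 in middle-aged naïve pools, at or under the detection floor in every one. Young lesions had 17, 19 and 7 counts (1.25, 1.47 and 0.527 CPM) and middle-aged lesions 21, 48 and 24 (1.74, 3.83 and 2.07 CPM). The groups did not overlap. The depth-adjusted ratio was 5.64 (95% exact interval for counting error 2.39 to 16.2) in young and 16.7 (6.90 to 52.6) in middle-aged mice, with edgeR adjusted p-values of 0.00484 and 8.51e-05.

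The order of the genes by level, which requires correction for transcript length, changed with injury. The lengths used were unions of all annotated exons (8870 bases for Vcam1, 7121 for Alcam), so the order depends on the annotation. In RPKM, which divides CPM by the length of the exons, Alcam was the highest in young naïve tissue (10.4 ± 1.66), followed by Vcam1 (3.66 ± 0.445) and Selplg (2.23 ± 0.969), whose pools overlapped each other, then Icam2 (0.716 ± 0.0823) and Icam1 (0.393 ± 0.0921), and last Plvap, Sele and Selp at 0.0971 RPKM or less (mean ± SD, n = 3 pools). In young lesions the order was Alcam (12.1 ± 0.516), Vcam1 (8.35 ± 1.97), Selplg (6.02 ± 0.00683) and Icam1 (4.89 ± 0.191), with no overlap between neighbours, then Icam2 (1.82 ± 0.208). Below them Sele (0.754 ± 0.376), Plvap (0.545 ± 0.249) and Selp (0.477 ± 0.251) overlapped. Icam1 thus changed places with Icam2, from below it to above it, in young mice. In middle-aged lesions Alcam led with 18.3 ± 1.28 RPKM, the levels of Vcam1 (8.17 ± 1.65) and Selplg (6.29 ± 1.01) overlapped, as did those of Selplg and Icam1 (5.30 ± 0.276), and Sele (2.04 ± 0.895), Icam2 (2.03 ± 0.710), Selp (2.02 ± 1.20) and Plvap (1.28 ± 0.566) could not be ordered beyond their spread. In middle-aged naïve tissue the means ran from Alcam (11.3 ± 1.33) through Vcam1 (3.32 ± 0.910), Selplg (2.16 ± 0.165), Icam2 (1.23 ± 1.25) and Icam1 (0.535 ± 0.185) to Plvap (0.0782 ± 0.0287), with Sele and Selp at 0.

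Age was compared first in tissue without a lesion. None of the 8 genes was called between middle-aged and young naïve mice by edgeR, 0 had an unadjusted p under 0.05, DESeq2 also called 0, and the pools overlapped for all 8. Over all genes 3.8% were called, and the pools did not overlap in either direction for 17.1%. The log2 difference, middle-aged minus young, was 0.43 for Icam1 (95% interval -0.15 to 1.01), -0.15 for Vcam1 (-0.63 to 0.34), -0.03 for Selplg (-0.57 to 0.50) and 0.13 for Alcam (-0.16 to 0.41). Icam2 had a difference of 0.74 (-0.54 to 2.02) that turned to -0.48 without the second middle-aged naïve pool.

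In lesions 4 genes had every middle-aged pool above every young pool, namely Sele, Selp, Plvap and Alcam, and none had the reverse. Such an arrangement was found for 11.1% of all genes. Only Alcam passed the test, with 130.4 ± 9.09 CPM in middle-aged against 86.4 ± 3.68 CPM in young lesions (SD, n = 3 pools), a log2 difference of 0.59 (SE 0.13, edgeR adjusted p = 0.0468), or 1.51-fold. Of all genes, 1.15% were called in this comparison, and 0.24% were called higher. The Alcam call was close to the threshold and was lost with library totals (adjusted p = 0.0595), with the replicate number taken as a block (0.0614) and in 8 of 12 fits with a pool left out, namely without any of the 6 lesion pools, the second young naïve pool or the third middle-aged naïve pool (adjusted p up to 0.212). The log2 difference stayed between 0.53 and 0.63 in all alternatives.

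The selectins and Plvap had larger differences with more spread. Selp was at 8.90 ± 5.29 CPM in middle-aged and 2.10 ± 1.11 CPM in young lesions, a log2 difference of 2.07 (SE 0.52, edgeR adjusted p = 0.0979, or 4.20-fold). DESeq2 gave an adjusted p of 0.0162 for it, and edgeR 0.0390 without the second middle-aged naïve pool. Without the third middle-aged injured pool, which held 173 of the 317 counts, the log2 difference was 1.49 (adjusted p = 0.359). Sele was at 5.93 ± 2.61 and 2.20 ± 1.095 CPM (log2 difference 1.43, SE 0.59, adjusted p = 0.428) and Plvap at 2.55 ± 1.12 and 1.08 ± 0.494 CPM (1.23, SE 0.48, adjusted p = 0.353). Their counts ranged from 7 to 103 per lesion pool. Neutrophil markers were at 9.94 to 17.2 CPM in young and 16.6 to 27.4 CPM in middle-aged lesions, myeloid markers at 1675 to 1712 and 1799 to 2435 CPM, and T cell markers at 1.20 to 1.98 and 2.64 to 5.56 CPM. Most of the neutrophil sum was Mmp8 (mean 11.6 CPM in young and 19.6 CPM in middle-aged lesions). S100a8 was level between the ages (1.30 and 1.34 CPM), and Ly6g had at most 1 count in any lesion pool. Summed oligodendrocyte markers stood at 18252 to 20256 CPM in young and 7930 to 12447 CPM in middle-aged lesions, and meningeal fibroblast markers at 808 to 1206 and 448 to 731 CPM, in both cases lower at the older age without overlap. Of the 6 fibroblast markers 2 were called lower, Col1a2 (means 543 and 198 CPM) and Col1a1 (78.8 and 20.8 CPM), and 4 were not called. Among these, Dcn was at 145 and 132 CPM, Lum at 109 and 96.8 CPM and Pdgfra at 169 and 166 CPM. The part of these markers in the age difference was not tested.

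For the integrin ligands and PSGL-1 no difference between young and middle-aged lesions was detected. The log2 difference was 0.12 for Icam1 (SE 0.20, 95% interval -0.31 to 0.55, adjusted p = 0.989), -0.03 for Vcam1 (SE 0.22, -0.50 to 0.43, adjusted p = 0.995), 0.06 for Selplg (SE 0.23, -0.43 to 0.56, adjusted p = 0.995) and 0.16 for Icam2 (SE 0.53, -0.99 to 1.30, adjusted p = 0.995). The pools of the ages overlapped for all 4 genes. For Icam1, Vcam1 and Selplg these intervals leave room for differences of up to about 0.56 on the log2 scale.

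Whether injury acted differently at the 2 ages was tested as the difference of the injury effects, middle-aged minus young. No member passed by edgeR or by DESeq2, 2 had an unadjusted p under 0.05, and 0.139% of all genes were called. The 2 were Sele (unadjusted p = 0.0210, adjusted p = 0.386), whose value rests on the 5 counts of 1 young naïve pool, and Alcam (0.47, SE 0.19, unadjusted p = 0.0261, adjusted p = 0.410). For Icam1 the difference was -0.32 (95% interval -1.04 to 0.41), for Vcam1 0.11 (-0.56 to 0.78) and for Selplg 0.10 (-0.63 to 0.82).

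**Figure D2:**
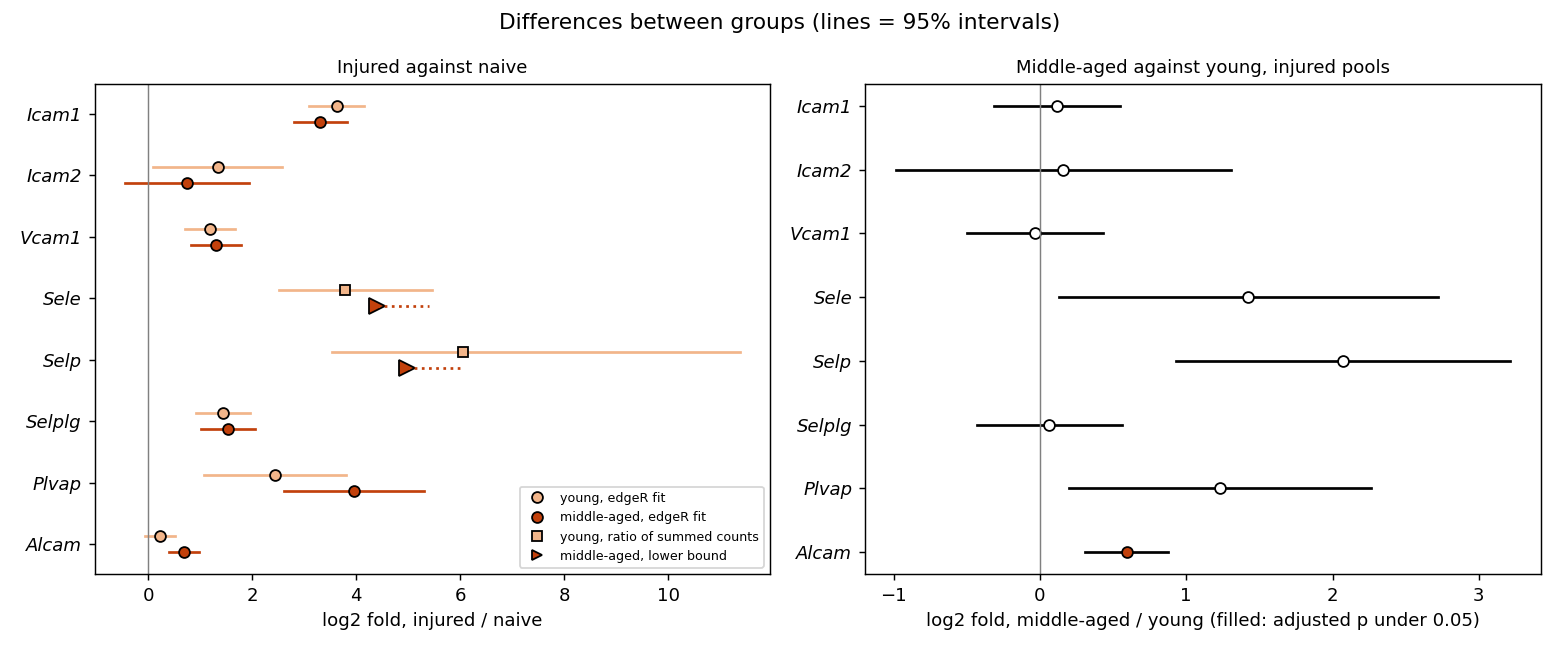
Log2 fold difference of each gene between injured and naïve pools at each age (left) and between middle-aged and young lesions (right), with 95% intervals; circles are edgeR fits, squares are depth-adjusted ratios of summed counts with counting intervals, and triangles with dotted lines are lower bounds where all naïve pools were at 0. Icam1, Vcam1 and Selplg lay close to 0 between the ages (0.12, -0.03 and 0.06), and Alcam at 0.59 is the only filled point on the right, where filling marks an adjusted p under 0.05.

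The levels were also set against endothelial RNA, since most of these genes are transcribed by endothelium. Per 1000 counts of the 10 endothelial markers, Icam1 had 3.30 ± 0.510 counts in young naïve and 52.4 ± 1.46 in young injured tissue, and 3.78 ± 0.989 and 51.2 ± 3.36 in middle-aged mice (SD, n = 3 pools). Vcam1 had 62.8 ± 1.09 and 181.4 ± 37.5 in young, and 48.9 ± 15.2 and 161.2 ± 37.9 in middle-aged mice. On this scale all injured pools were above all naïve pools for 8 of 8 genes in young and 7 of 8 in middle-aged mice, Icam2 being the exception, each with an exact permutation p of 0.1, the smallest possible (0.2 for Icam2). The divisor was itself lower in lesions (log2 difference -0.34 in young and -0.43 in middle-aged mice), which raises the ratio of any gene. The share of all genes with this arrangement on this scale was not computed, so these counts are a description only. Alcam went from 142.9 ± 14.4 to 212.8 ± 19.4 in young mice on this scale, 1.49-fold, and from 134.3 ± 26.3 to 288.6 ± 14.1 in middle-aged mice. The sizes depended on the endothelial reference, whose sum was lower in lesions largely through Slco1a4. With Cldn5 alone in place of the 10 markers, the young ratio of injured to naïve tissue went from 15.6 to 8.73 for Icam1, from 2.85 to 1.59 for Vcam1 and from 3.14 to 1.76 for Icam2, and the middle-aged ratio from 13.5 to 9.34 for Icam1 and from 3.34 to 2.30 for Vcam1. For Alcam and Selplg, young naïve and injured pools overlapped with that reference, and the Alcam value in young mice was -0.26 on the log2 scale. Monocytes, macrophages, astrocytes and neurons are known to transcribe some of these genes as well, and the cell of origin of the transcripts was not measured.

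Between the ages the same 4 genes stood apart on the endothelial scale. The divisor differed little between the lesions of the 2 ages (log2 difference 0.15), so this largely repeats the CPM arrangement and is no separate evidence. Per 1000 endothelial marker counts, Sele was at 3.75 to 8.39 in young and 8.77 to 20.7 in middle-aged lesions, Selp at 2.37 to 7.50 and 11.2 to 34.8, Plvap at 1.38 to 3.43 and 3.70 to 8.42, and Alcam at 191.7 to 229.8 and 272.4 to 298.9. The pools of the 2 ages did not overlap for any of them, and here too the share of all genes was not computed. Icam1 was at 51.2 to 54.0 and 47.9 to 54.6, which overlapped.

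**Figure D3:**
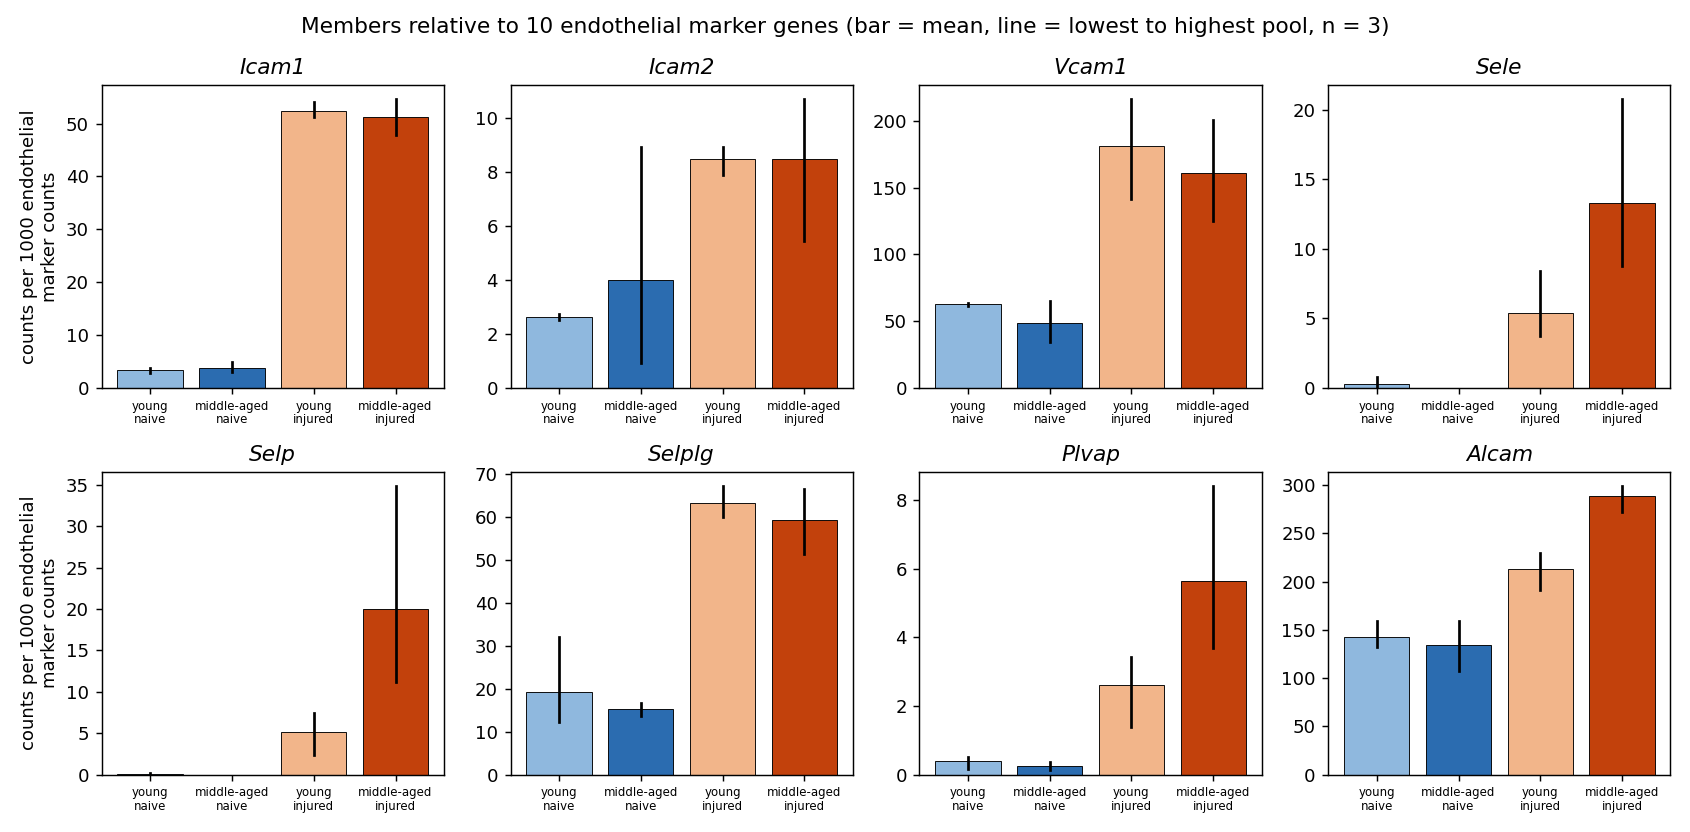
Counts of each gene per 1000 counts of 10 endothelial marker genes (vertical axis, from 0 and scaled separately for each gene) in the 4 groups; bars are means of 3 pools and lines run from the lowest to the highest pool. Icam1 stood at 52.4 and 51.2 in young and middle-aged lesions, whereas Selp stood at 5.09 and 20.1 and Alcam at 212.8 and 288.6.

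Other genes of vessel wall adhesion and junctions mostly rose with injury. Of 18 listed, 15 were tested, 10 rose and 3 fell in young lesions, and 11 rose and 3 fell in middle-aged lesions, with median log2 fold changes of 1.06 and 1.08. Madcam1, Icam4 and Icam5 were too low to test. Cd93, an endothelial and myeloid receptor, rose most (3.43, SE 0.19, and 4.54, SE 0.20, edgeR adjusted p = 3.78e-09 and 4.18e-10), followed in young lesions by Vwf, the von Willebrand factor gene (2.94 and 1.88), and Cdh5, which encodes VE-cadherin (1.94 and 1.98). Pecam1, a molecule of transmigration at endothelial junctions, rose by 1.06 and 1.66, and Ackr1, which carries chemokines on venules, by 1.35 and 2.11. Those that fell were Mcam (-0.84 and -0.67), Cd99l2 (-0.88 and -1.17) and Jam3 (-1.16 and -1.52). Jam3, which encodes a junctional adhesion molecule, was the one gene of this list called between the ages in lesions, at 59.8 ± 6.69 CPM in middle-aged and 91.7 ± 10.6 CPM in young mice (edgeR adjusted p = 0.0387). This call was close to the threshold and was not repeated under the alternative settings.

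Most leukocyte partners of the 8 genes rose. Of 13 listed, 11 were tested, and 10 rose and 0 fell at each age, Glg1 (the E-selectin ligand ESL-1) being the exception at 0.02 and -0.13. The median log2 fold change was 2.91 in young and 3.77 in middle-aged mice. The largest values in young mice were those of Itgax (5.61 and 3.77 at the 2 ages), the CD11c integrin chain, Itgb2 (5.12 and 4.46) and Spn (4.84 and 4.71), which encodes the sialomucin CD43. The smallest that passed were those of Itgb1 (1.73 and 2.42), the beta chain of VLA-4, Cd44 (1.61 and 2.20), a hyaluronan receptor that also binds E-selectin, and Cd24a (0.55 and 0.54). Itgb2, the shared beta chain of LFA-1 and Mac-1 that binds the ICAMs, rose from 5.50 ± 0.430 to 191.0 ± 8.54 CPM in young and from 12.1 ± 3.39 to 268.6 ± 52.9 CPM in middle-aged mice. Itgam rose by 4.43 and 3.91 and Itgal by 4.02 and 3.70 on the log2 scale. Itga4, the VLA-4 chain that binds VCAM-1, rose by 2.91 and 4.10. Cd6, whose product binds ALCAM, was too low to test. Many of these are genes of myeloid cells, whose markers rose in parallel (8 of 8 at each age), and none was called between the ages in lesions. Spn held at most 1 count in any naïve pool, so a higher level in lesions was needed for it to be tested at all. How many genes of this and the next lists passed the filter in this way was not counted.

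Enzymes that build selectin ligands were divided. Of 10 listed, 9 were tested, and 4 rose and 1 fell in young lesions against 5 and 1 in middle-aged lesions, with medians of 0.19 and 0.54. B4galt1 rose by 4.02 and 3.98, Gcnt1, which makes the core-2 branches that PSGL-1 needs, by 3.85 and 3.94, and the fucosyltransferase gene Fut4 by 3.65 and 4.26. Tpst2, a sulfotransferase of tyrosines, rose by 0.58 and 0.78. The sialyltransferase gene St3gal3 fell by 0.73 and 0.78. Fut7, the other fucosyltransferase of leukocytes, was too low to test. Among 16 cytokine, receptor and NF-kappaB pathway genes, 14 rose in young and 15 in middle-aged lesions and 0 fell. Their median was 2.34 (2.13 with Tnf at its bound) and 1.96. Tnf had 0 counts in young naïve tissue and was at least 3.73-fold higher in young lesions, and in middle-aged mice it had 57 counts in lesions against 1. The receptor gene Tnfrsf1b rose by 5.33 and 4.26 and Tnfaip3, an NF-kappaB-induced inhibitor, by 3.77 and 3.50. Of the NF-kappaB genes, Nfkb1 rose by 1.42 and 1.17, Rela by 0.46 and 0.34, and the inhibitor gene Nfkbia by 0.90 and 1.23. Relb did not pass the test at either age (0.48 and 0.30). Il1b rose by 4.43 and 6.06 and was at 6.80 ± 0.438 CPM in middle-aged and 1.59 ± 0.646 CPM in young lesions (log2 difference 2.09, SE 0.46, edgeR adjusted p = 0.0443). That age call was not repeated under the alternative settings. Fut4, Tnf and Il1b held at most 9, 1 and 2 counts in any naïve pool, so they were tested only through their lesion pools.

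Of 8 genes for membrane anchors and sheddases of adhesion molecules, 7 rose and 0 fell at each age, with medians of 1.78 and 2.09. Adam8, a protease of leukocytes able to cleave PSGL-1, rose from 0.168 ± 0.162 to 120.3 ± 9.91 CPM in young and from 0.594 ± 0.230 to 263.1 ± 70.8 CPM in middle-aged mice, and it was called higher in middle-aged than in young lesions (log2 difference 1.13, SE 0.20, adjusted p = 0.0117). It held at most 8 counts in any naïve pool, so it too was tested only through its lesion pools. Adam17, a sheddase of VCAM-1, rose by 1.37 and 2.05. Ezr, the gene of ezrin, which links ICAMs to the actin cytoskeleton, rose by 2.46 and 2.37, and Actn1, for an alpha-actinin, by 2.71 and 2.72. The smaller rises were those of Adam10 (1.02 and 1.05), another sheddase, and Actn4 (0.83 and 1.14). Rdx had values of -0.27 and -0.06 that did not pass.

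**Figure D4:**
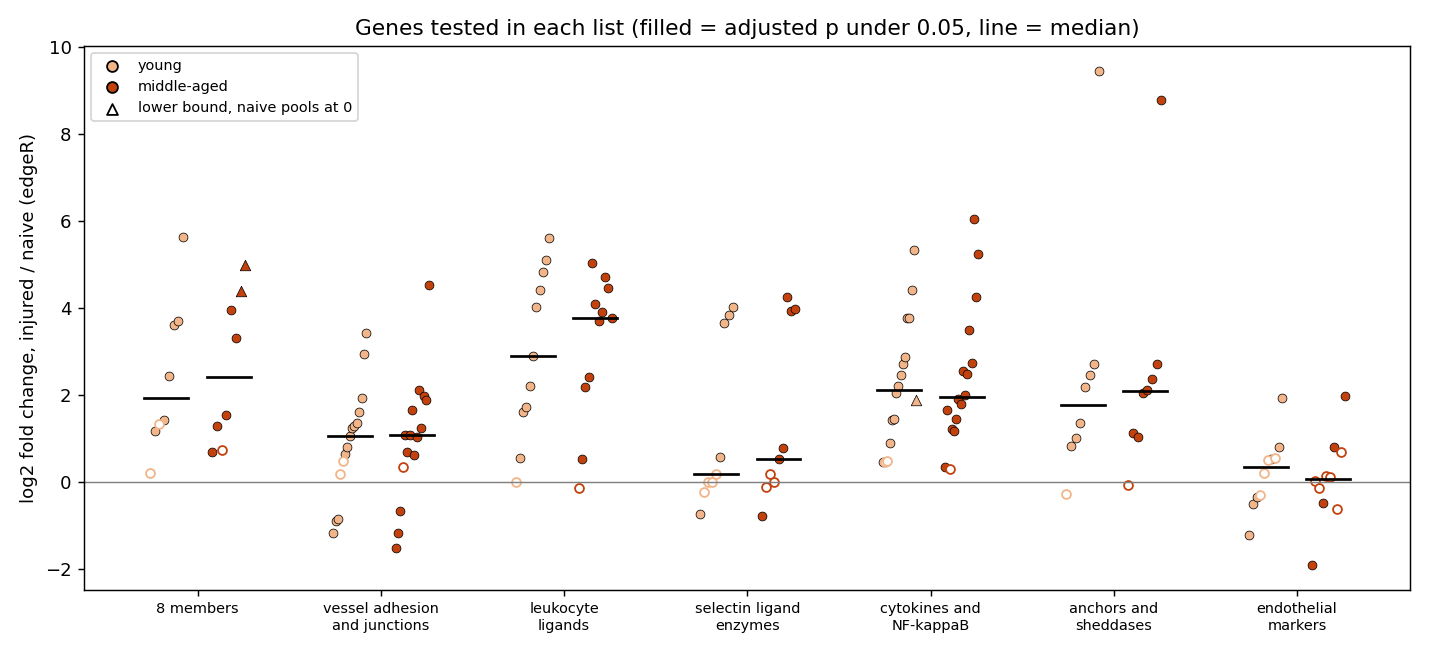
Log2 fold change between injured and naïve pools (vertical axis) for every tested gene of 7 lists, in young and middle-aged mice; filled points passed the edgeR test at an adjusted p under 0.05, open points did not, triangles are lower bounds for genes at 0 in all naïve pools of that age, and black lines are medians with those bounds. Leukocyte ligands had medians of 2.91 and 3.77, selectin ligand enzymes 0.19 and 0.54, and endothelial markers lay on both sides of 0.

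Genes whose log2 CPM profile over the 12 pools was most like that of a member were listed by Pearson's r among 13119 genes, as a description only, since the pools share their groups and naïve and injured pools form separate clusters. For Icam1 they were Tgfbr2 (0.997), Acp5 (0.995) and Iqgap1 (0.995). For Vcam1 they were Carnmt1 (0.970), Mob3c (0.967) and Gins1 (0.960), for Selplg Dpp7 (0.993), Dtx4 (0.983) and Fes (0.979), for Icam2 Nop16 (0.978), Mrpl45 (0.965) and Bag1 (0.950), and for Alcam Lgals8 (0.921), Atp6v1b2 (0.914) and Tnfrsf12a (0.900). Sele, Selp and Plvap were under the minimum mean level set for this list.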

How the data were processed

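Laser-captured spinal cord white matter was profiled as 12 libraries, 3 pools in each of 4 groups, with group and replicate number taken from the sample labels. The authors checked reads with FastQC 0.11.4, aligned them with TopHat 2.0.10, which called bowtie 1.1.2, against the Ensembl GRCm38 genome, and deposited raw counts of reads per gene made by featureCounts. RNA was amplified while the libraries were built, so counts are not independent molecules and counting intervals cover counting error only. The annotation release, strand setting and treatment of shared reads are not given in the sources used here. All 12 columns of counts were used, and 45143 of 46078 gene identifiers matched a symbol in GENCODE.

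Counts were fitted by edgeR 4.0.16 in R 4.3.3, using filterByExpr, TMM factors, 1 model of all 12 pools with a coefficient for each group, and the quasi-likelihood F test. Benjamini-Hochberg adjustment covered 15866 genes, and 0.05 was the threshold. Each standard error was derived from the fold change and its F statistic, and log2 CPM used a prior count of 2. Single ratios were compared by 2-sided exact permutation tests on log2 values with a pseudocount of 0.5. RPKM used the union of exons in GENCODE. The steps were tested on simulated data. The 8 genes and all gene lists were chosen with earlier results of these data known. A gene of the leukocyte partner list is not reported here, and that list was counted without it. The genes named from each related list were the 3 with the highest and the 3 with the lowest log2 fold change in young mice among those called at both ages in 1 direction, and further partners named by role were chosen after their values were seen. Alternatives were other scalings (DESeq2 size factors, upper quartile, library totals), other filters, DESeq2 1.42.0, a replicate block, only the pools compared, and each pool left out in turn.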

Additional observations from a re-analysis of the deposited data

How the results depend on the processing

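The count of members called for injury stayed between 5 and 8 in young and between 6 and 8 in middle-aged mice over 20 alternatives, and none was called for age in naïve mice or for the difference of injury effects in any of them. The count called between ages in lesions (1, Alcam) was less stable. It was 0 with library totals and with the replicate block, 2 (Alcam and Selp) without a filter, with DESeq2 and with only the pools compared, and 0 to 2 when 1 pool was left out. The age calls of Jam3, Il1b, Adam8 and other genes outside the 8 were not followed through the alternatives. Over all genes, the 603 called for age in naïve mice became 1153 without a filter, 1085 with DESeq2, 71 with only the pools compared, and 261 to 800 with 1 pool left out. The 182 called for age in lesions became 437, 451 and 818 under those settings and 45 to 410 with 1 pool left out. The 22 called for the difference of injury effects became 329 without a filter, 228 with DESeq2 and 3 to 56 with 1 pool left out. Calls for injury stayed within 7533 to 9681 in young and 7975 to 9645 in middle-aged mice. Of the anchors and sheddases, 1 was called lower in young lesions with upper-quartile factors and with only the pools compared, and 0 to 1 with 1 pool left out. With library totals the summed endothelial markers differed by -0.14 in young and -0.32 in middle-aged mice on the log2 scale, in place of -0.34 and -0.43.

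Small values changed sign when 1 pool was left out. For age in naïve mice the log2 value ran from -0.64 to 0.0476 for Plvap, from -0.21 to 0.37 for Selplg, from -0.48 to 1.23 for Icam2 and from -0.34 to 0.0553 for Vcam1. For age in lesions it ran from -0.0265 to 0.20 for Selplg, from -0.0368 to 0.43 for Icam2 and from -0.17 to 0.17 for Vcam1. For the difference of injury effects it ran from -0.31 to 0.28 for Selplg, from -0.53 to 0.00347 for Icam1, from -1.07 to 0.64 for Icam2 and from -0.0877 to 0.30 for Vcam1. The causes were not tested.

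The shared replicate numbers do not pair the pools: deviations of same-numbered pools from their group means had correlations of -0.11 to 0.15. With the replicate number as a block, 7 members were called for injury in young mice, where Icam2 also passed (adjusted p = 0.0342), 7 in middle-aged mice, and 0 in the other comparisons. Over all genes the block gave 8577 calls in young, 9153 in middle-aged, 529 for age in naïve mice, 189 for age in lesions and 31 for the difference of injury effects. Sele, Selp and Plvap held at most 6 counts per group in naïve tissue, so the size of their rise is limited by depth. Plvap could not be tested under the stricter filter.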
